A study of Bos taurus with 12 samples.

Results

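The 5 genes GAPDH, ACTB, YWHAZ, PPIA and B2M, which laboratories commonly use as internal references, were followed in RNA from milk fat of 6 Holstein cows in early lactation. They are the 5 rows, of 24616 in the count table, with the Ensembl cattle IDs ENSBTAG00000014731 (GAPDH), ENSBTAG00000026199 (ACTB), ENSBTAG00000000236 (YWHAZ), ENSBTAG00000012003 (PPIA) and ENSBTAG00000012330 (B2M). The rule names the genes and uses none of their counts, although it was written with earlier results of these data known. Each cow gave 1 lysine library and 1 control library, so there were 6 libraries of each kind and 12 in all. The lysine was supplied beyond the rumen, and the labels state that it lasted 63 days, while titles carry only the codes 63 and 0, so that whether 63 is a duration or an amount is uncertain. The labels also carry a code B (1 or 2, with 3 cows each) and a code P (1 to 4), neither of which they explain. In cows 4394 and 4408 the P code was 4 for lysine and 1 for control, and in the other 4 cows it was lower by 1 for lysine than for control. Breed and stage of lactation were the same in all groups, and the labels used here give no allele and no age.

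A reference gene is read as a yardstick: its own level is assumed to stay put, so that the level of another gene can be expressed against it. GAPDH encodes an enzyme of glycolysis, and ACTB encodes cytoplasmic beta-actin of the cytoskeleton. YWHAZ encodes a 14-3-3 adaptor protein that binds phosphorylated partners, PPIA encodes cyclophilin A, which helps proteins fold, and B2M encodes the light chain of MHC class I on the cell surface. Milk fat globules carry away cytoplasm of mammary secretory cells when they bud from the cell, and milk fat also holds some shed cells and leukocytes. B2M is known for its high expression in leukocytes. GAPDH, ACTB and PPIA are known in mammals for many processed pseudogenes. How reads that match several copies were counted is not given in the sources used here, so the counts of these 3 genes are uncertain to that extent.

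Libraries differed in depth and in how far a few genes filled them. Totals ran from 5.45 to 56.6 M counts (M is the metric prefix mega). The 10 most abundant genes of a library took 60.4% to 86.8% of the counts in lysine libraries and 60.7% to 75.8% in control libraries. The lysine libraries of cows 4383 and 4381 stood apart in this respect, at 86.8% and 82.4%. Counts were set on a common scale in 2 ways. In the first, a count was divided by the library total, which gives CPM (counts scaled to a common total). In the second, the total was multiplied by a TMM factor, which is taken from the bulk of the genes so that a few very abundant ones do not set the scale; these values are called normalised CPM. TMM factors ran from 0.44 to 1.41 in lysine libraries and from 0.87 to 1.41 in control libraries, and were lowest in the lysine libraries of cow 4383 (0.44) and cow 4381 (0.58).

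All 5 genes were measured well above the counting limit. The smallest count was 461 (YWHAZ in the lysine library of cow 4319) and the largest 52535 (ACTB in the lysine library of cow 4345). For that smallest count the level was 84.6 CPM with an exact 95% binomial interval of 77.1 to 92.7 CPM, a half-width of 9.24%, the widest of the 60 values. The interval covers counting error only, since PCR copies of a molecule cannot be recognised without molecular identifiers. Levels below are not compared between genes, because no transcript lengths were at hand.

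With library totals as the scale, the 5 genes varied by 4.04-fold to 8.68-fold over the 12 libraries, where the median range over all tested genes was 7.10-fold. Over the tested genes at 100 CPM or more the median range was narrower, at 4.72-fold. GAPDH measured 96.0 to 833 CPM in lysine libraries (median 236) and 187 to 790 CPM in control libraries (median 271), a range of 8.68-fold over the 12. ACTB measured 209 to 1384 CPM (median 592) with lysine and 535 to 1713 CPM (median 787) in control, a range of 8.21-fold. For YWHAZ the values were 20.9 to 109.9 CPM with lysine and 48.4 to 133 CPM in control, a 6.39-fold range. In both kinds of library the values of each of these genes overlapped widely, and the lysine library of cow 4383 was the lowest of all 12.

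PPIA and B2M showed the same lowest library. PPIA, the folding catalyst, measured 116 to 805 CPM with lysine (median 362) and 200.1 to 613 CPM in control (median 431), a 6.96-fold range. B2M, the MHC class I light chain, measured 166 to 670 CPM with lysine (median 373) and 394 to 606 CPM in control (median 511), the narrowest range of the 5 at 4.04-fold. Together the 5 genes took at the least 0.0607% of all counts (lysine library of cow 4383) and at the most 0.353% (control library of cow 4345). In the lysine library of cow 4383 the share of the 10 most abundant genes was 86.8%, against 66.4% in the control library of that cow. In bulk RNA of this kind, fewer cells of a type and less RNA per cell cannot be told apart.

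**Figure D1:**
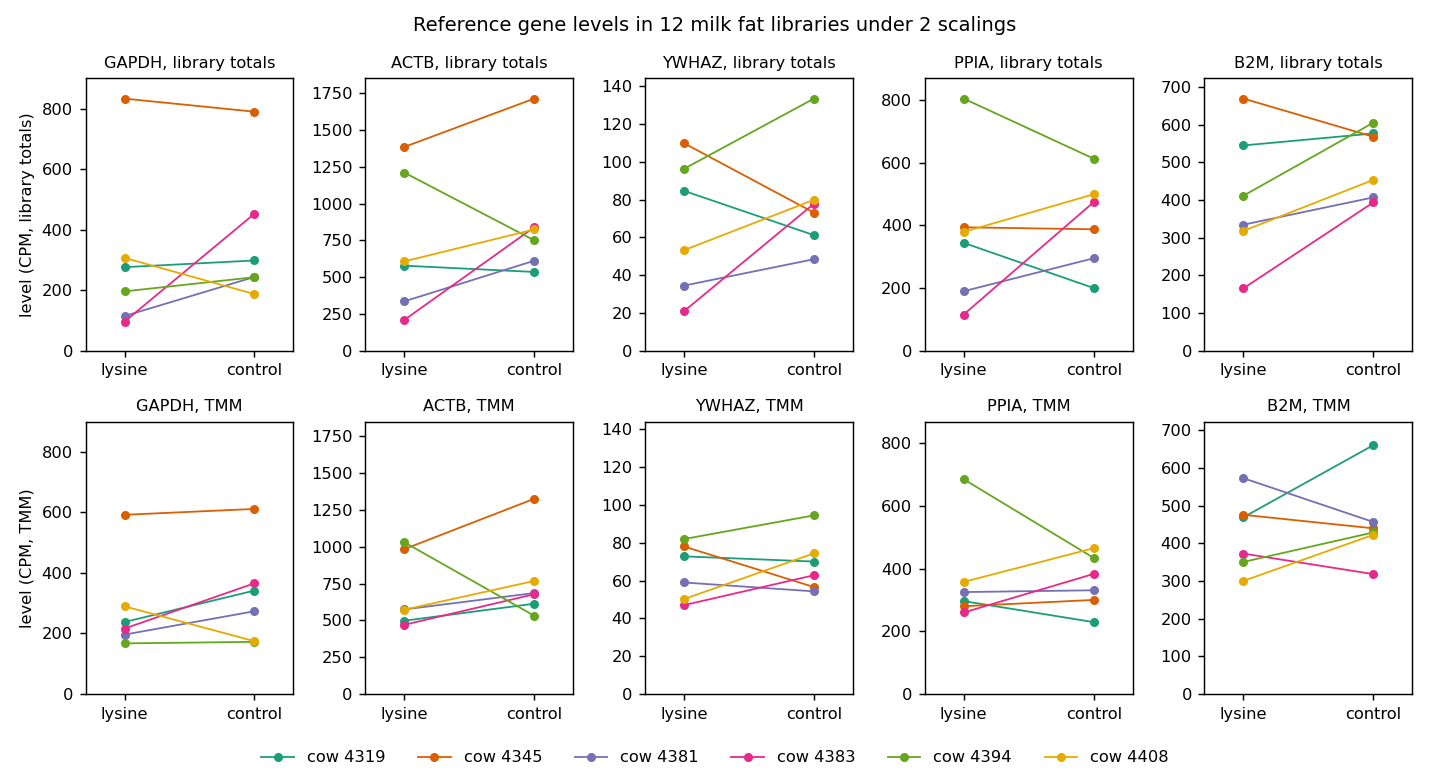
Level of each reference gene (columns) in CPM by library total (upper row) and in normalised CPM by TMM (lower row), with axes from 0 and 1 line per cow joining its lysine and control libraries. GAPDH in cow 4345 lies above the other cows in all 4 of its points, and the steep lines of cow 4383 in the upper row are flatter in the lower row.

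TMM scaling narrowed all 5 ranges, to between 2.01-fold (YWHAZ) and 3.66-fold (GAPDH). YWHAZ measured 47.0 to 82.0 normalised CPM with lysine (median 65.9) and 54.3 to 94.5 in control (median 66.4). B2M measured 300.3 to 573 normalised CPM with lysine (median 421) and 318 to 661 in control (median 434). PPIA measured 260.0 to 685 with lysine (median 311) and 229 to 465 in control (median 357), with the lysine library of cow 4394 far above the rest. All 5 genes lay within a 4-fold range over the 12 libraries, as did 43.4% of the 11323 genes tested and 76.2% of the 433 tested genes at a mean of 100 normalised CPM or more. With library totals none of the 5 lay within 4-fold, where 14.3% of all tested genes and 33.5% of the 454 genes at 100 CPM or more did.

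GAPDH was set apart by cow 4345, and ACTB by cow 4345 and by the lysine library of cow 4394. GAPDH reached 592 normalised CPM in the lysine library and 612 in the control library of cow 4345. In the other 5 cows it stayed between 167 and 290 with lysine and between 172 and 366 in control, so both libraries of cow 4345 lay above every other library. ACTB, the actin gene, stood at 983 with lysine and 1326 in control in cow 4345. The lysine library of cow 4394 reached 1031, while the remaining 9 libraries lay between 470 and 767 normalised CPM.

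PPIA and YWHAZ were highest in another animal, cow 4394. PPIA measured 685 normalised CPM in the lysine library of this cow and 434 in its control library, where the control library of cow 4408 held more (465). YWHAZ measured 82.0 with lysine and 94.5 in control in cow 4394, and both were the highest of their kind of library. GAPDH, in contrast, was at its lowest in this cow, at 167 with lysine and 172 in control. B2M was highest in the control library of cow 4319, at 661, where its lysine library held 469 normalised CPM. The control library of cow 4394 also held the fewest detected genes, 10687, against 12224 to 15319 in the other control libraries and 12198 to 14096 in lysine libraries; the part of this in its values was not tested.

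The main comparison asked whether lysine changed the level of each gene within cows. None of the 5 changed past the threshold (quasi-likelihood test of edgeR with a term for each cow, Benjamini-Hochberg adjustment over 11323 genes, adjusted p = 1.0 for each). Among all tested genes 0% passed the adjusted threshold, 2.53% had an unadjusted p under 0.05 with edgeR, and none of the 5 was among the latter; DESeq2 called 0 genes, with 543 at an unadjusted p under 0.05. GAPDH averaged 283 ± 157 normalised CPM with lysine and 323 ± 163 in control (SD, n = 6 each). Its log2 fold change was -0.19 with an SE of 0.21, and it was lower with lysine in 5 of 6 cows. ACTB averaged 688 ± 251 with lysine and 767 ± 285 in control, a log2 fold change of -0.17 ± 0.22 (SE), and was also lower in 5 of 6 cows. Leaving out a cow moved the value of GAPDH between -0.36 (without cow 4408) and -0.07 (without cow 4383).

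For the other 3 genes the estimates were closer to 0. YWHAZ averaged 64.8 ± 14.8 normalised CPM with lysine and 68.8 ± 14.8 in control, a log2 fold change of -0.09 ± 0.18 (SE). B2M averaged 424 ± 100.2 with lysine and 455 ± 112 in control, a log2 fold change of -0.10 ± 0.19 (SE). Both were higher with lysine in 3 of 6 cows and lower in 3. PPIA averaged 367 ± 160 with lysine and 357 ± 87.9 in control. Its log2 fold change within cows was -0.01 ± 0.20 (SE), and it was lower in 4 of 6 cows. The sign of this fold change turned under 4 of the 8 other settings and in 4 of the 6 fits that left out a cow. Among those settings is scaling to the other 4 reference genes, where the fold changes nearly cancel by construction.

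The 95% intervals give a range for the average change of each gene, and this range depended on the scale. With TMM the 95% intervals of the log2 fold change ran from -0.66 to 0.28 for GAPDH, -0.66 to 0.31 for ACTB, -0.48 to 0.30 for YWHAZ, -0.45 to 0.43 for PPIA and -0.52 to 0.31 for B2M. All 5 thus lay within a 2-fold change in either direction, as did those of 49.9% of all tested genes. With library totals none of the 5 intervals did, where 16.2% of all tested genes had such an interval. The lower bounds then lay between -1.24 (GAPDH) and -1.05 (PPIA).

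**Figure D2:**
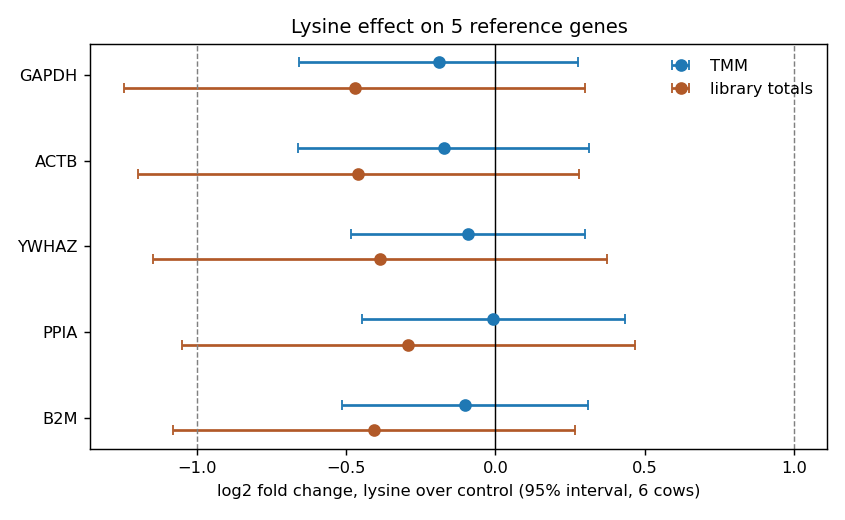
Log2 fold change of lysine over control for each reference gene with its 95% interval over 6 cows, under TMM (upper point of each pair) and under library totals (lower point); dashed lines mark a 2-fold change. All 10 intervals include 0, and the 5 under library totals extend below the left dashed line.

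With library totals the estimates lay lower, and so did those of most tested genes. The log2 fold changes of the 5 genes were -0.47 (GAPDH), -0.46 (ACTB), -0.39 (YWHAZ), -0.29 (PPIA) and -0.41 (B2M), each with an adjusted p of 1.0 by edgeR. The median of all tested genes was -0.26 under library totals and 0.04 under TMM, a shift of -0.30. Relative to that median the values were -0.21, -0.20, -0.13, -0.03 and -0.14 under library totals, and -0.23, -0.21, -0.13, -0.04 and -0.14 under TMM. A change of scale moves all genes by about the same amount, so these relative values had to be alike.

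Single cows departed widely from these averages. ACTB was lower with lysine in 5 cows, at 0.69 to 0.84 of the control level in normalised CPM, and at 1.94 times the control level in cow 4394. Without cow 4394 its log2 fold change was -0.39 (edgeR, adjusted p = 0.846), and the SD of the within-cow difference was 0.09, against 0.56 with all 6 cows. GAPDH was at 0.59 to 0.97 of the control level in 5 cows and at 1.66 times in cow 4408; without cow 4408 the SD of its difference was 0.31, against 0.53. PPIA ranged from 0.68 (cow 4383) to 1.58 (cow 4394), YWHAZ from 0.67 (cow 4408) to 1.38 (cow 4345) and B2M from 0.71 (cow 4319) to 1.25 (cow 4381). In normalised CPM, cow 4394 alone had more ACTB with lysine, and cow 4408 alone had more GAPDH. These 2 cows are those whose P code was higher for lysine. Both had less YWHAZ with lysine in normalised CPM (0.87 of control in cow 4394, 0.67 in cow 4408) and less B2M (0.82 and 0.71). In the other cows YWHAZ was lower only in cow 4383 (0.75) and B2M only in cow 4319 (0.71). The remaining genes went in opposite directions in cows 4394 and 4408. ACTB and PPIA were lower with lysine in cow 4408, and GAPDH was slightly lower in cow 4394. With library totals ACTB was also higher with lysine in cow 4319, and GAPDH in cow 4345. The part of the P code in these differences cannot be told apart from that of cows 4394 and 4408 themselves.

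Under library totals the lysine library of cow 4383 held all 5 genes at 0.21 to 0.42 of its control library. Only B2M among the 5 was then lower with lysine in as many as 5 cows, by a mean log2 difference of -0.41 ± 0.51 (SD, n = 6). An exact two-sided sign-flip permutation test over the cows gave p = 0.0938 for B2M and 0.281 to 0.594 for the other 4 genes, and 6 cows cannot give a p below 0.0313. With normalised CPM the exact sign-flip p lay between 0.406 and 0.906. Lysine and control values overlapped for all 5 genes on both scales; among all tested genes 0.194% did not overlap with TMM and 0.274% with library totals.

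The lysine effect was also compared between cows coded B2 and cows coded B1, 3 each. No difference passed the threshold for any of the 5 genes (edgeR interaction test, adjusted p 0.780 to 0.932), nor for any other gene (0% of those tested, 6.92% at an unadjusted p under 0.05). The largest estimate was that of GAPDH, a difference B2 minus B1 of 0.51 on the log2 scale (SE 0.41, 95% interval -0.39 to 1.41). Within cows coded B2 the mean log2 difference of GAPDH was 0.07 ± 0.61, and within cows coded B1 it was -0.44 ± 0.36 (SD, n = 3 each). For ACTB it was -0.37 ± 0.10 within cows coded B2 and 0.04 ± 0.80 within cows coded B1. With the P code as a linear term, the log2 fold changes of the 5 genes ran from -0.25 (GAPDH) to -0.02 (PPIA).

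Cows were then compared with each other. For GAPDH, cow took 82.5% of the sum of squares of log2 normalised CPM, and treatment 2.26%, where medians over all tested genes were 55.5% and 3.63%. For the other 4 genes cow took 62.7% (YWHAZ) to 74.1% (PPIA), and treatment at most 3.43% (ACTB). Over the tested genes at 100 normalised CPM or more, the medians were 65.8% for cow and 1.84% for treatment. The F test of the cow terms gave an unadjusted p of 0.0043 and an adjusted p of 0.102 for GAPDH (edgeR), and adjusted p values of 0.447 (ACTB), 0.374 (PPIA), 0.619 (B2M) and 0.675 (YWHAZ). None of the 5 passed, as against 1.42% of all tested genes (15.5% at an unadjusted p under 0.05). Under library totals none passed either, where 3.5% of all tested genes did. GAPDH passed without cow 4408 (adjusted p = 0.0408) and without a low-count filter (adjusted p = 0.006), and stood at an adjusted p of 0.944 without cow 4345.

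Spread over all 12 libraries placed the 5 genes from near the steady end to the middle of all tested genes. The SD of log2 normalised CPM was 0.31 for YWHAZ, 0.33 for B2M, 0.43 for PPIA, 0.46 for ACTB and 0.65 for GAPDH, against a median of 0.64 over all tested genes. That put YWHAZ at percentile 6.98 and B2M at 9.34 of all tested genes, counted from the steadiest, and PPIA at 23.2, ACTB at 28.7 and GAPDH at 51.1. Scarce genes vary more through counting error, so abundant genes are the nearer yardstick. Among the 433 tested genes at 100 normalised CPM or more, whose median SD was 0.46, B2M stood at percentile 16.9, PPIA at 37.9, ACTB at 50.6 and GAPDH at 82.2. YWHAZ itself averaged 66.8 normalised CPM; its SD would lie at percentile 13.9 of that set.

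Library totals changed both the spread and the order. The SD of log2 CPM was then 0.55 for B2M, 0.74 for YWHAZ, 0.78 for PPIA, 0.85 for ACTB and 0.95 for GAPDH, against a median of 0.82 over all tested genes. B2M stayed low at percentile 9.07, while YWHAZ stood at 39.3, PPIA at 45.0, ACTB at 53.6 and GAPDH at 62.4. Among the 454 tested genes at 100 CPM or more, B2M stood at percentile 25.1, PPIA at 81.1, ACTB at 86.6 and GAPDH at 89.6. YWHAZ averaged 72.8 CPM and is not in that set; its SD would lie at percentile 75.6.

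**Figure D3:**
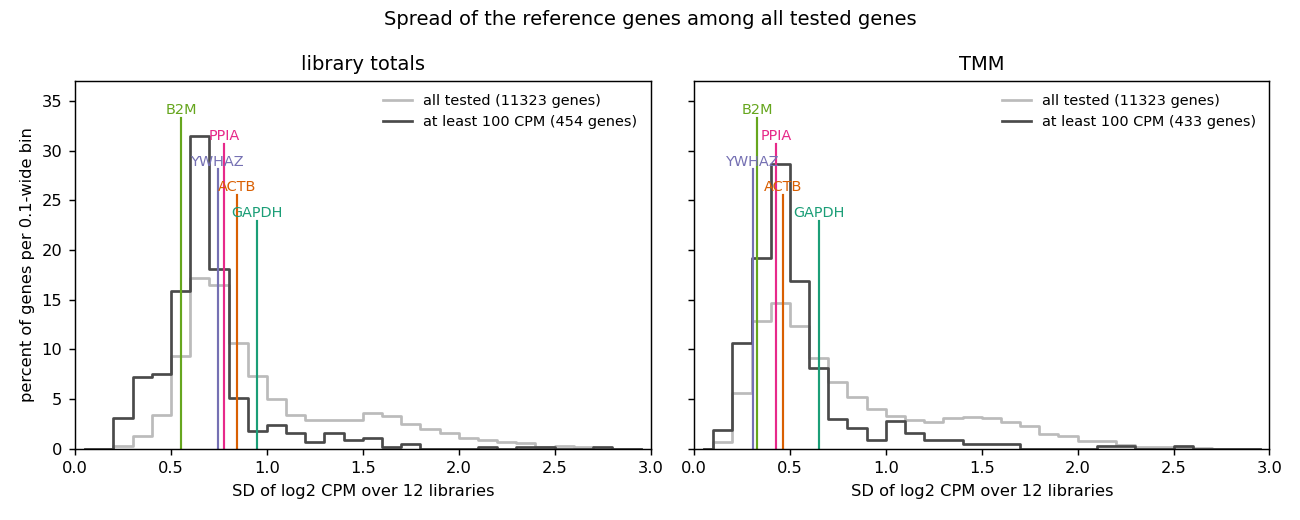
Distribution of the SD of log2 CPM over the 12 libraries, as percent of genes per bin, for all tested genes (grey) and those at 100 CPM or more (dark), with vertical lines at the 5 reference genes; left library totals, right TMM. GAPDH has the largest SD of the 5 in both panels (0.95 and 0.65), and YWHAZ and B2M lie at the left of the TMM panel (0.31 and 0.33).

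These spreads rested in part on 2 cows. Without cow 4345 the SD of GAPDH was 0.42 and that of ACTB 0.33, so that PPIA became the most variable of the 5. Without cow 4394 the SD of PPIA was 0.29 and that of YWHAZ 0.23. YWHAZ had the lowest SD in 5 of the 6 sets that left out a cow and B2M in the sixth, without cow 4319. GAPDH had the highest in 5 of 6. The order differed for the SD over cows of the within-cow difference in log2 normalised CPM. That SD was 0.37 for B2M, 0.38 for YWHAZ, 0.46 for PPIA, 0.53 for GAPDH and 0.56 for ACTB. Its median was 0.79 over all tested genes and 0.50 over those at 100 normalised CPM or more. With a cow left out, B2M had the lowest within-cow SD in 3 sets, and ACTB, GAPDH and YWHAZ in 1 set each.

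Ratios between 2 reference genes of a library do not depend on how libraries are scaled. For the 10 pairs, the ratio of counts (each plus 2) varied over the 12 libraries by 2.27-fold at the least and 8.67-fold at the most. YWHAZ/B2M was the steadiest, with ratios of 0.10 to 0.23 with lysine and 0.11 to 0.22 in control, and YWHAZ/PPIA came next at a 2.55-fold range. GAPDH/PPIA varied most, with ratios of 0.24 to 2.11 with lysine and 0.37 to 2.04 in control. In cow 4345 there were 2.11 GAPDH counts per PPIA count with lysine and 2.04 in control, and in cow 4394 there were 0.24 with lysine and 0.40 in control. The ratio thus differed most between these 2 animals.

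Averaged over its 4 partners, the SD of the log2 ratio was 0.52 for YWHAZ, 0.55 for ACTB, 0.58 for B2M, 0.64 for PPIA and 0.75 for GAPDH. GAPDH was highest in all 6 sets that left out a cow, with values of 0.63 to 0.80. YWHAZ was lowest in 5 of them, and ACTB without cow 4345. No pair passed the threshold for lysine, but the design could hardly let one pass: with 6 cows a single pair cannot reach an adjusted p below 0.313, and at least 7 of the 10 would need the smallest p. The 10 mean within-cow differences of the log2 ratio lay between -0.18 (GAPDH/PPIA) and 0.10 (PPIA/B2M). That of GAPDH/PPIA was -0.44 without cow 4408 and -0.04 without cow 4319. The smallest p of an exact two-sided sign-flip permutation was 0.313 for ACTB/PPIA (lower with lysine in 4 of 6 cows, difference -0.16 ± 0.33, SD), and the adjusted p over the 10 pairs was 0.969 for each.

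**Figure D4:**
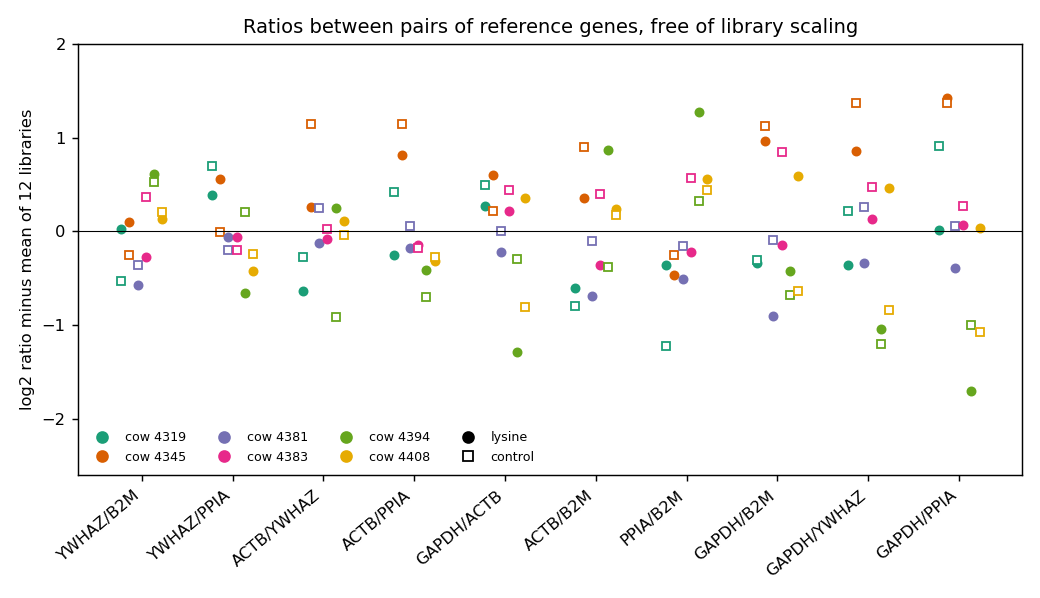
Log2 ratio of the counts of 2 reference genes minus its mean over the 12 libraries, for the 10 pairs ordered by SD, with filled circles for lysine libraries, open squares for control libraries and a colour per cow. The cloud is narrowest for YWHAZ/B2M (SD 0.40) and widest for GAPDH/PPIA (SD 0.95), where cow 4345 is at the top and the lysine library of cow 4394 at the bottom.

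How closely the 5 genes followed each other differed between the scales. With library totals, Pearson correlations of log2 CPM between pairs, described over 12 libraries that share cows and totals, were all positive, from 0.41 (GAPDH/PPIA) to 0.86 (YWHAZ/PPIA). With TMM they ran from -0.55 (GAPDH/PPIA) to 0.52 (GAPDH/ACTB). Under TMM the closest partner of GAPDH was ACTB and the reverse (0.52), that of YWHAZ was PPIA and the reverse (0.45), and that of B2M was YWHAZ (0.22). Among 7347 other genes at 5 normalised CPM or more, the mean profile of the 5 was most like ENSBTAG00000013607 (Pearson r = 0.88, 35.3 to 92.2 normalised CPM) and ENSBTAG00000000132 (r = 0.84, 111 to 235). The highest of 7347 correlations over only 12 libraries would be high among unrelated genes too. Neither ID could be given a name, and neither changed with lysine past the threshold (log2 fold changes -0.13 and -0.12, edgeR, adjusted p = 1.0).

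The geometric mean of the 5 counts, the form in which reference genes are usually applied, followed the TMM effective total far more closely than the library total. TMM is itself taken from the bulk of the genes. The median SD of single tested genes also fell, from 0.82 under library totals to 0.64 under TMM, so such narrowing is not particular to the 5. Expressed as CPM of the library total it ran from 95.7 to 507 in lysine libraries and from 244 to 465 in control libraries, a 5.30-fold range. In normalised CPM it ran from 215 to 360.1 with lysine and from 273.7 to 360.1 in control, a 1.67-fold range (SD 0.21 on the log2 scale). Cow 4345 was highest in both of its libraries (360.1 each) and the lysine library of cow 4383 lowest.

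**Figure D5:**
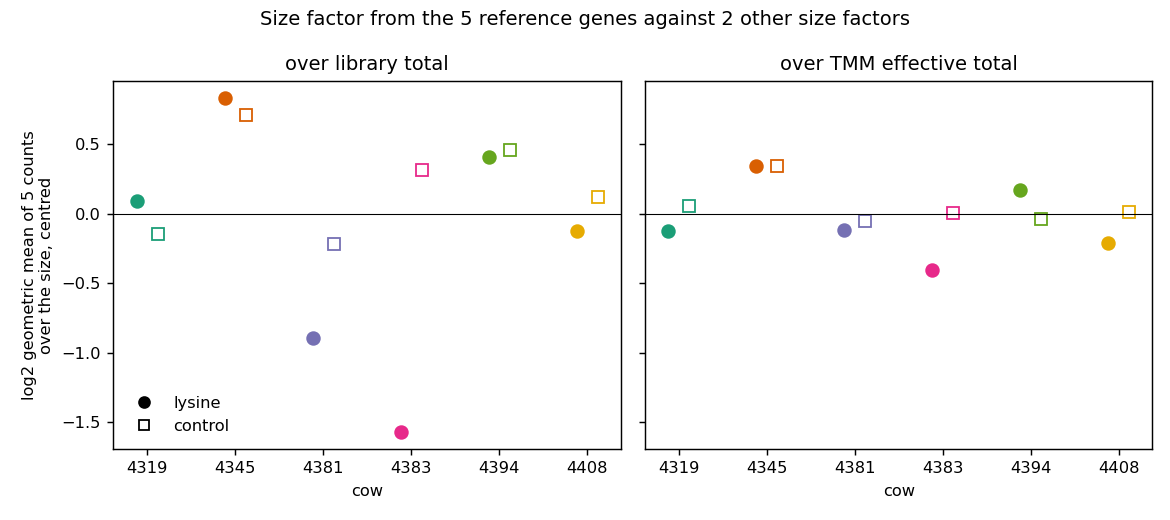
Log2 of the geometric mean of the 5 counts over the library total (left) and over the TMM effective total (right), each centred on 0 over the 12 libraries, by cow, with filled circles for lysine and open squares for control. The lysine library of cow 4383 lies at -1.57 on the left and at -0.40 on the right, and both libraries of cow 4345 lie at 0.34 on the right.

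Against TMM, the geometric mean was lower with lysine in 4 cows, higher in cow 4394, and at 0.34 (log2, centred) in both libraries of cow 4345. The mean log2 difference was -0.11 ± 0.21 (SD, n = 6, exact two-sided sign-flip permutation p = 0.219). Against library totals it was lower in 4 of 6 cows, by -0.42 ± 0.79 (exact sign-flip permutation p = 0.281). When the 5 genes set the scale for all tested genes, the median log2 fold change of lysine was 0.15, and 0 genes passed the adjusted threshold (431 at an unadjusted p under 0.05, edgeR). A single gene as the scale gave medians of 0.23 (GAPDH), 0.22 (ACTB), 0.13 (B2M), 0.12 (YWHAZ) and 0.05 (PPIA), with 0 genes called and 169 (PPIA) to 337 (ACTB) at an unadjusted p under 0.05 by edgeR. Such a scale holds its own gene level. These medians thus had to mirror the fold change of that gene relative to the median tested gene, given above, and are not a separate result. Scaled to the other 4, the log2 fold changes were -0.11 for GAPDH and -0.07 for ACTB, and 0.02 for YWHAZ, 0.13 for PPIA and 0.01 for B2M. These values nearly cancel by construction, so they could not all share a sign.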

How the data were processed

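RNA was prepared from centrifuged milk fat with Trizol and a column, and libraries followed standard Illumina methods, per the labels' protocols. The authors deposited whole-number read counts per Ensembl gene ID, 1 column per library, not normalised. For the aligner, counter, strand setting, build and annotation release the sources used here name none. Column names equal the sample descriptions. Groups and cows came from the titles. Members, lists and tests were chosen with earlier results of these data known. The named genes are the 5, plus the 2 genes most correlated with their mean profile.

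Genes were kept by filterByExpr (minimum count 10), leaving 11323, and tested with edgeR 4.0.16 (R 4.3.3), TMM, robust quasi-likelihood with cow as a block, Benjamini-Hochberg threshold 0.05; DESeq2 1.42.0 was an alternative. The fit was tested on simulated data. Log2 CPM used a prior count of 2. The pairing is by animal; deviations from group means correlated at -0.02 to 0.66 within cows (median 0.19). The RefSeq table of 37063 genes matched 0 of the IDs, so 16 other candidate reference genes and 17 cell type markers were not used, and leukocyte or epithelial shares were not measured. Depth was 5.45 to 56.6 M counts.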

Additional observations from a re-analysis of the deposited data

Results flagged for a closer look

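Of 40 groups of 6 libraries checked by Dixon's test at the 95% level, 8 had a value that stood apart. Chance gives about 1 group in 20 where values are normally distributed, and the groups share libraries and counts. The test was run on CPM and ratios without logs, where that rate need not hold, and all 8 values were the highest of their group. In the lysine library of cow 4345, GAPDH stood at 833 CPM against 307 in the next lysine library, and at 592 normalised CPM against 290. In the control library of the same cow, ACTB stood at 1713 CPM against 839 in the next, and at 1326 normalised CPM against 767. The ratios GAPDH/PPIA (2.11, next 0.83) and ACTB/PPIA (3.51, next 1.81) also stood apart in the lysine library of cow 4345. The other 2 values were in cow 4394: PPIA at 685 normalised CPM in its lysine library (next 358), and YWHAZ at 133 CPM in its control library (next 79.9).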

How the results depend on the processing

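No reference gene passed the threshold for lysine under any of 14 alternatives each (lowest adjusted p 0.846, ACTB without cow 4394), and GAPDH and ACTB kept their negative sign in all 14. PPIA turned positive, at 0.0017 with DESeq2 size factors, 0.0017 with DESeq2, 0.041 with no replicate block and 0.13 with the other reference genes as size factor, and in that last setting YWHAZ (0.023) and B2M (0.0091) did too. In that setting the log2 fold changes of the reference genes nearly cancel by construction, so some had to be positive whatever lysine did. Blocking changed no call (0 genes with and without the replicate block). With a cow left out the log2 fold change ran from -0.36 to -0.07 for GAPDH, -0.39 to -0.10 for ACTB, -0.19 to 0.018 for YWHAZ, -0.14 to 0.10 for PPIA and -0.18 to -0.0091 for B2M. For lysine 1 gene was called when scarce genes were kept. The cow test called 161 genes, 396 with library totals, 82 with the reference genes as size factor, 829 when scarce genes were kept, and between 9 (without cow 4345) and 429 (without cow 4408) when a cow was dropped. For GAPDH its adjusted p was 0.0060 when scarce genes were kept and 0.0408 to 0.944 when a cow was dropped. The cause of these changes was not tested.

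With library totals the SD over 12 libraries moved to 0.95 (GAPDH), 0.85 (ACTB), 0.74 (YWHAZ), 0.78 (PPIA) and 0.55 (B2M), and the within-cow SD to 1.04 (GAPDH), 0.92 (ACTB), 0.89 (YWHAZ), 0.99 (PPIA) and 0.51 (B2M). With a cow left out the SD over libraries was 0.42 to 0.71 for GAPDH, 0.33 to 0.50 for ACTB, 0.23 to 0.33 for YWHAZ and 0.29 to 0.47 for PPIA. The within-cow SD was 0.31 to 0.58 for GAPDH, 0.086 to 0.62 for ACTB and 0.32 to 0.50 for PPIA. The within-cow difference of log2 ratios was -0.26 to 0.17 for GAPDH/ACTB, -0.37 to 0.0055 for GAPDH/YWHAZ, -0.44 to -0.04 for GAPDH/PPIA, -0.25 to -0.06 for ACTB/PPIA, -0.35 to 0.10 for GAPDH/B2M, -0.32 to 0.092 for ACTB/YWHAZ, -0.32 to 0.076 for ACTB/B2M, -0.22 to 0.070 for YWHAZ/PPIA, -0.10 to 0.14 for YWHAZ/B2M and -0.075 to 0.27 for PPIA/B2M. A prior count of 0.5 turned no sign. Single-gene size factors were added after the data were seen.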
